A study of Mus musculus with 4 samples.

Results

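The Mediator complex was followed through 34 rows of the expression table, those whose symbol begins with Med and a number together with Ccnc, Cdk8 and Cdk19, out of 35869 rows in all. Of these rows, 33 are subunits of the complex, and 1, Med9os, is a noncoding RNA that starts beside Med9 and owes its place to its symbol. The cells were oligodendrocytes, the glia that make myelin, sorted by flow cytometry from the cortices of mice at postnatal day 5 for the surface lipids O4 and GalC, and their RNA was sequenced. The 4 libraries comprise 2 from animals with the knock-in allele of Zfp488 on both chromosomes (Zfp488 KI/KI in the design text, Zfp488 KO in the labels, here KO) and 2 from control animals (WT). Zfp488 encodes a zinc finger protein of the oligodendrocyte lineage. The sources used here give neither the strain nor the design of the allele, nor whether each library came from its own animals, so the spread between libraries of a group may be technical. Levels are FPKM as deposited, fragment counts scaled by transcript length and by depth.

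Mediator is a large multi-subunit coactivator that joins transcription factors bound at enhancers to RNA polymerase II at the promoter. A head and a middle contact the polymerase, a tail receives many of the activators, Med14 runs through these parts as a backbone, and a separable module with a cyclin-dependent kinase controls the access of the polymerase to the rest. In humans, variants of MED12, MED13L and MED17 cause disorders of brain development. Med27, Med28, Med29 and Med30 lie between head and tail, are assigned to either in different structural studies, and are called the upper tail here.

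The genotype difference entered the choice of this complex, since Med18 was already known to be among the genes that differed most, so the differences between KO and WT are given as a description without a test of the members. In a limma fit over the 10754 rows with at least 1 FPKM in at least 2 libraries, 0 genes (0%) had an adjusted p under 0.05 and 608 had an unadjusted p under 0.05, so no subunit passed. A share of about 0.05 of the rows is expected under that unadjusted limit with no difference at all. The 608 are therefore not read as genes that differ. Zfp488 itself was at 4.82 and 4.11 FPKM in KO and at 6.61 and 5.29 FPKM in WT, so reads from the locus remained in KO. The lineage markers Olig1, Olig2 and Sox10 were read at 242 FPKM or more in every library. The 14 oligodendrocyte markers summed to 3126 and 2631 FPKM in KO and to 3068 and 2775 FPKM in WT. The sum of 4 endothelial markers separated the libraries by number and not by genotype. It was 0.035 FPKM in KO 1 and 26.6 in KO 2, and 0.002 in WT 1 and 28.0 in WT 2. Nearly all of it was Cldn5, at 0.035 and 26.3 FPKM in KO and at 0 and 26.8 FPKM in WT. Cdh5 was at 0 and 0.353 FPKM in KO and at 0 and 0.043 FPKM in WT. Pecam1 was at 0.002 FPKM or less in every library. Flt1 was at 0 in both KO libraries and at 0.002 and 1.20 FPKM in WT. The 5 astrocyte markers summed to 96.3 and 226 FPKM in KO and to 74.1 and 144 FPKM in WT, the 6 microglial markers to 14.5 and 19.4 FPKM in KO and to 9.77 and 26.5 FPKM in WT, and the 6 neuronal markers to 58.4 and 71.9 FPKM in KO and to 44.2 and 44.0 FPKM in WT. The 4 interneuron markers summed to 4.24 and 6.93 FPKM in KO and to 0.264 and 2.14 FPKM in WT. Among them, Dlx2 alone separated the genotypes, at 3.65 and 4.84 FPKM in KO and at 0 and 0.055 FPKM in WT. Dlx1, Gad1 and Gad2 had overlapping groups, with log2 differences of -0.06, -0.02 and 0.20. The part of these markers in the results below was not tested. In such bulk samples, fewer cells of a type and less RNA per cell cannot be told apart.

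Subunits of this complex were read at very unequal levels. Means over the 4 libraries ran from 0.101 FPKM for Med12l to 102 FPKM for Med30, with a median of 5.95 FPKM over the 33 subunits. A mean of 10 FPKM or more was found for 12 subunits and a mean under 2 FPKM for 10. Med30, of the upper tail, was at 66.9 and 115 FPKM in KO and at 95.7 and 129 FPKM in WT. Med21, a middle subunit that pairs with Med7 in a flexible hinge, came next at 38.3 and 72.9 FPKM in KO and at 76.5 and 103 FPKM in WT. The ranges of these 2 subunits overlapped between libraries, but within every library Med30 was above Med21. Next came Med20, Med4 and Med28, with means of 38.6, 35.9 and 31.7 FPKM, whose ranges overlapped too. Med20 was above both others in every library, while Med4 was below Med28 in WT 2. At the other end, the backbone subunit Med14 was at 0.623 and 0.612 FPKM in KO and at 0.498 and 0.245 FPKM in WT. Med1, the subunit that binds nuclear receptors, was at 0.375 and 0.971 FPKM in KO and at 0.748 and 0.974 FPKM in WT. The order of subunits by level was much alike in all libraries, with Spearman's rho between 0.925 and 0.973 for the 6 pairs of libraries over the 33 subunits.

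**Figure D1:**
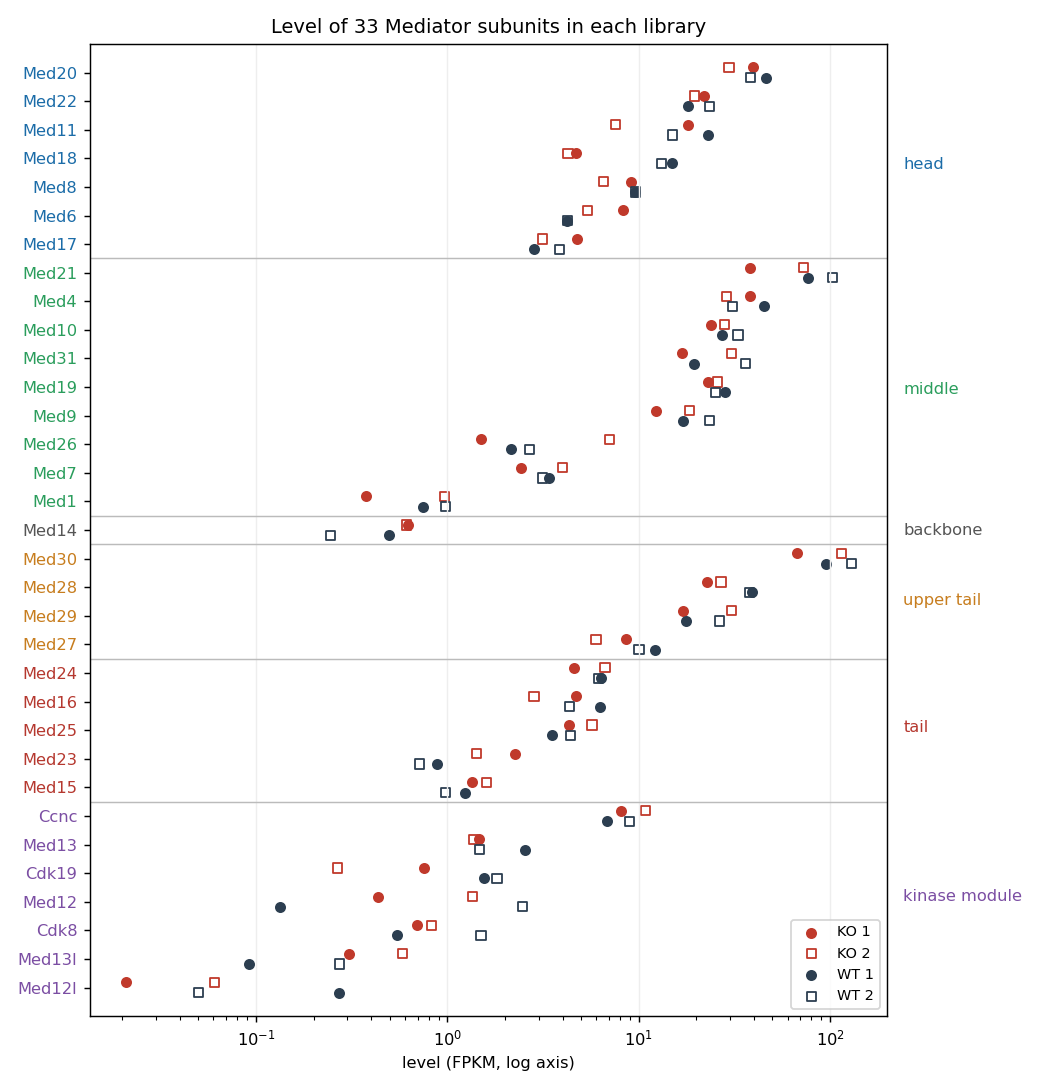
Level of each Mediator subunit in FPKM on a log axis, one row per subunit grouped by part of the complex, with filled circles for libraries numbered 1 and open squares for those numbered 2, red for KO (upper in each row) and dark for WT. Subunits spread from a mean of 0.101 FPKM (Med12l) to 102 FPKM (Med30), and the kinase module holds most of the lowest levels.

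Level went with the size of the protein encoded. FPKM already corrects for length, yet the 18 subunits with a coding sequence under 1000 bp had a median level of 21.9 FPKM (range 3.25 to 102) and the 15 longer ones a median of 1.29 FPKM (range 0.101 to 5.95). Spearman's rho between mean FPKM and coding length was -0.83 over the 33 subunits and -0.40 over 9088 tested protein-coding genes. These correlations are across genes, which share the libraries and are not independent replicates. From the steps between low values, 1 FPKM on 1 kb stood for about 40.1 reads in KO 1, 38.7 in KO 2, 37.4 in WT 1 and 43.0 in WT 2. Med14, with a longest transcript of 6963 bp, thus rested on about 174 and 165 reads in KO and 130 and 73 reads in WT, and Med12l, the lowest subunit, on about 9 and 26 reads in KO and 112 and 24 reads in WT. These read numbers are rough, since they assume the longest annotated transcript of each gene.

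On the log2(FPKM + 1) scale, the largest difference among the subunits was that of Med18, a head subunit that forms a movable lobe with Med20, held to the rest of the head by Med8. Med18 was at 4.71 and 4.28 FPKM in KO, against 14.9 and 13.2 FPKM in WT. The KO libraries lay close together and far below the WT libraries, with a ratio of the mean FPKM of KO over WT of 0.320. The difference in log2(FPKM + 1) was -1.45 (SE 0.29), and it lay between -1.62 and -1.37 under every alternative scaling, filter and left-out library. The approximate read numbers were 316 and 277 in KO and 935 and 947 in WT. With a pseudocount of 0.1, Med18 was at -1.62 and Cdk19 at -1.67, so the order of these 2 depends on the pseudocount. Of the 10754 tested rows, 94 (0.874%) had a difference as low or lower, and of these 31 had a mean of at least 4 FPKM.

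Med20, the direct partner of Med18 in the lobe, differed much less. It was at 39.5 and 29.7 FPKM in KO and at 46.4 and 38.6 FPKM in WT, with overlapping groups and a log2 difference of -0.30 (SE 0.25). The ratio of Med18 to Med20 was therefore 0.119 and 0.144 in KO and 0.321 and 0.341 in WT. Med8, the tether of the lobe, was at 9.16 and 6.56 FPKM in KO and at 9.52 and 9.59 FPKM in WT, which placed KO 1 just below the WT libraries (log2 difference -0.27, SE 0.31). Some 27.1% of the 50-base words of Med20 transcripts also occur in other annotated genes, mainly the pseudogene Kpna2-ps inside its locus, against 0.975% for Med18 and 0 words for Med8, so the Med20 level is the least certain of these 3.

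Med18 lies on chromosome 4 of GRCm38.p6, from 132458729 to 132463921 on the minus strand. The 250 bases before its RefSeq start (chr4:132463922-132464171, minus strand, GRCm38.p6) are shown because of the genotype difference of this gene. Capitals mark GGGCGG, the letters of a GC box.
Med18: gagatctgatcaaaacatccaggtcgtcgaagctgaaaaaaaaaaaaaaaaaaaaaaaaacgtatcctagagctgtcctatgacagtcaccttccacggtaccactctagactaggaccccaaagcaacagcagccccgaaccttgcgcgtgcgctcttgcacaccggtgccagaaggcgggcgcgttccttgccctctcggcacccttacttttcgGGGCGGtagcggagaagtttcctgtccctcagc
GGGCGG was looked for on both strands of the 250 bases before each RefSeq start, and was found for 19 of the 28 subunits with a promoter entry (67.9%), for 65.4% of 7182 tested protein-coding genes and for 45.8% of 17492 protein-coding genes. CCGGAAG, a core that ETS factors bind, was found for 6 subunits (21.4%), for 16.9% of the tested genes and for 10.2% of all. TATAAA was found for 3 subunits (10.7%), Med7, Med16 and Med28, for 7.13% of the tested genes and for 13.7% of all. The median ratio of observed to expected CG pairs was 0.80 for the subunits, 0.77 for the tested genes and 0.57 for all protein-coding genes. The searched letters do not exclude each other and can overlap in a promoter. CCAAT was found for 11 subunits (39.3%), for 41.8% of the tested genes and for 39.5% of all, and the median GC content was 58%, 61.2% and 56.4% in the same order. No test of these shares was made.

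The remaining head subunits went in both directions. Med6, at the join of head and middle, was at 8.25 and 5.38 FPKM in KO, against 4.20 and 4.25 FPKM in WT, a log2 difference of 0.56 (SE 0.35) with both KO libraries higher. Med11, which pairs with Med22, was at 18.04 and 7.58 FPKM in KO and at 23.0 and 15.0 FPKM in WT (log2 difference -0.61, SE 0.48). The KO libraries of Med11 differed from each other more than the genotypes did, and the difference was -1.19 without KO replicate 1 and -0.04 without KO replicate 2. Med17, the scaffold of the head, was at 4.74 and 3.13 FPKM in KO and at 2.83 and 3.86 FPKM in WT, and its log2 difference of 0.17 (SE 0.37) changed sign without KO replicate 1 (-0.062). Med22 was at 22.0 and 19.6 FPKM in KO and at 18.1 and 23.4 FPKM in WT, a log2 difference of 0.02 (SE 0.26), the smallest of the head, with a sign that turned under 5 of the alternatives.

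Middle subunits were lower in mean for 8 of 9, although the groups separated for Med21 alone, beside 18.3% of all tested rows lower in both KO libraries. Med21 (levels above) had a log2 difference of -0.74 (SE 0.36), while its 2 KO libraries differed from each other by 0.91 on the same scale. Both KO libraries of Med21 lay below both WT libraries, with KO 2 only just under WT 1, and the difference was -0.28 without KO 1 and -1.19 without KO 2. Some 15.4% of the 50-base words of Med21 transcripts also occur in other annotated genes, among them Gm6654, Rps26-ps1 and Tm7sf3. Exons of Med21 overlap Tm7sf3 on the opposite strand by 197 bp. Tm7sf3 was at 77.2 and 61.0 FPKM in KO and at 73.1 and 57.9 FPKM in WT. The part of these genes in the Med21 level was not tested. The 2 other subunits of this part with the larger differences were Med9 and Med26. Med9 was at 12.4 and 18.5 FPKM in KO and at 17.0 and 23.4 FPKM in WT (log2 difference -0.37, SE 0.32), with overlapping groups. Med26, which brings elongation factors to the polymerase, was at 1.51 and 7.01 FPKM in KO and at 2.14 and 2.68 FPKM in WT. Its mean difference of 0.40 (SE 0.63) came from KO 2 alone and was -0.44 without it. Med10, Med31, Med4, Med19, Med7 and Med1 had overlapping groups and log2 differences between -0.22 and -0.04. The difference of Med7 changed sign with libraries rescaled to a common sum (TPM) and without either WT 1 or KO 1, that of Med4 without WT 1 or KO 2, and that of Med31 without WT 2 or KO 1. About 88.7% of the 50-base words of Med10 transcripts lie in an annotated noncoding gene on the opposite strand, Gm26819, and since the strand setting is not given the reads of these 2 genes cannot be told apart.

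Med9 and Med9os start 66 bases apart on opposite strands of chromosome 11. The 250 bases before Med9 (chr11:59947964-59948213, plus strand, GRCm38.p6) are shown because they take in the stretch between the starts of both genes. Capitals mark the 66 bases between the 2 starts, and the rest lies within Med9os.
Med9: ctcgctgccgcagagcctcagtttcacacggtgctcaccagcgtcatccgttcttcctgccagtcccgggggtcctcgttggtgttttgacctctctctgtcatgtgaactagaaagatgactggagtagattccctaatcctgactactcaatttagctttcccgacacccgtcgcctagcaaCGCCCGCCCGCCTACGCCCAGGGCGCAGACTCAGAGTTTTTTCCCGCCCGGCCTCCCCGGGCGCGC
Med9os was at 0.899 and 5.59 FPKM in KO, on about 19 and 114 reads, and was listed at 0 in both WT libraries. Whether a value listed at 0, for this or any other gene, is a measured absence or a failed estimate is not known, so no fold is given. The annotated exons of Med9 and Med9os do not overlap. Med9 was lower in mean in KO, with overlapping groups. Within KO the library with more Med9os, KO 2, also had more Med9, at 18.5 FPKM against 12.4 FPKM in KO 1. A relation between Med9 and Med9os was not tested.

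In the upper tail, 2 of 4 subunits were lower in both KO libraries, as were 18.3% of all tested rows. Med28 was at 22.8 and 27.0 FPKM in KO, against 39.1 and 38.1 FPKM in WT, a log2 difference of -0.62 (SE 0.22). Its libraries were close within each group, and the difference lay between -0.75 and -0.50 under the alternatives. Med27 was at 8.60 and 5.98 FPKM in KO, against 12.2 and 10.03 FPKM in WT (log2 difference -0.56, SE 0.32). Med30 (-0.34, SE 0.32) and Med29 (0.08, SE 0.38) had overlapping groups. Med29 was at 17.1 and 30.6 FPKM in KO and at 17.6 and 26.4 FPKM in WT, so it followed the library number and not the genotype, and its sign turned without WT 1 or KO 2. The sign of Med30 turned without KO 1 (0.047).

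Tail subunits, the part that most activators contact, were higher in both KO libraries for 2 of 5 and lower for 0, beside 16.6% and 18.3% of all tested rows. Med23, a target of the adenoviral activator E1A and of Elk1, was at 2.25 and 1.42 FPKM in KO, against 0.883 and 0.716 FPKM in WT, a log2 difference of 0.64 (SE 0.38) that was 1.08 with a pseudocount of 0.1 and 0.996 with libraries rescaled to TPM. It passed the filter through its KO libraries alone, on about 461 and 280 reads in KO and 168 and 157 reads in WT. Med15, which binds the sterol regulators SREBP, was at 1.34 and 1.60 FPKM in KO, against 1.24 and 0.981 FPKM in WT (log2 difference 0.23, SE 0.36). Both groups of Med15 were close together and their separation was small. Med25 was at 4.33 and 5.71 FPKM in KO and at 3.54 and 4.41 FPKM in WT (log2 difference 0.27, SE 0.34), Med16 at 4.72 and 2.84 FPKM in KO and at 6.31 and 4.34 FPKM in WT (-0.42, SE 0.39), and Med24 at 4.59 and 6.67 FPKM in KO and at 6.39 and 6.16 FPKM in WT (-0.15, SE 0.33). These 3 had overlapping groups, and Med24 changed sign without KO 1. Med14, the backbone, was higher in both KO libraries at the levels given above, with a log2 difference of 0.24. It did not pass the filter and so has no SE.

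**Figure D2:**
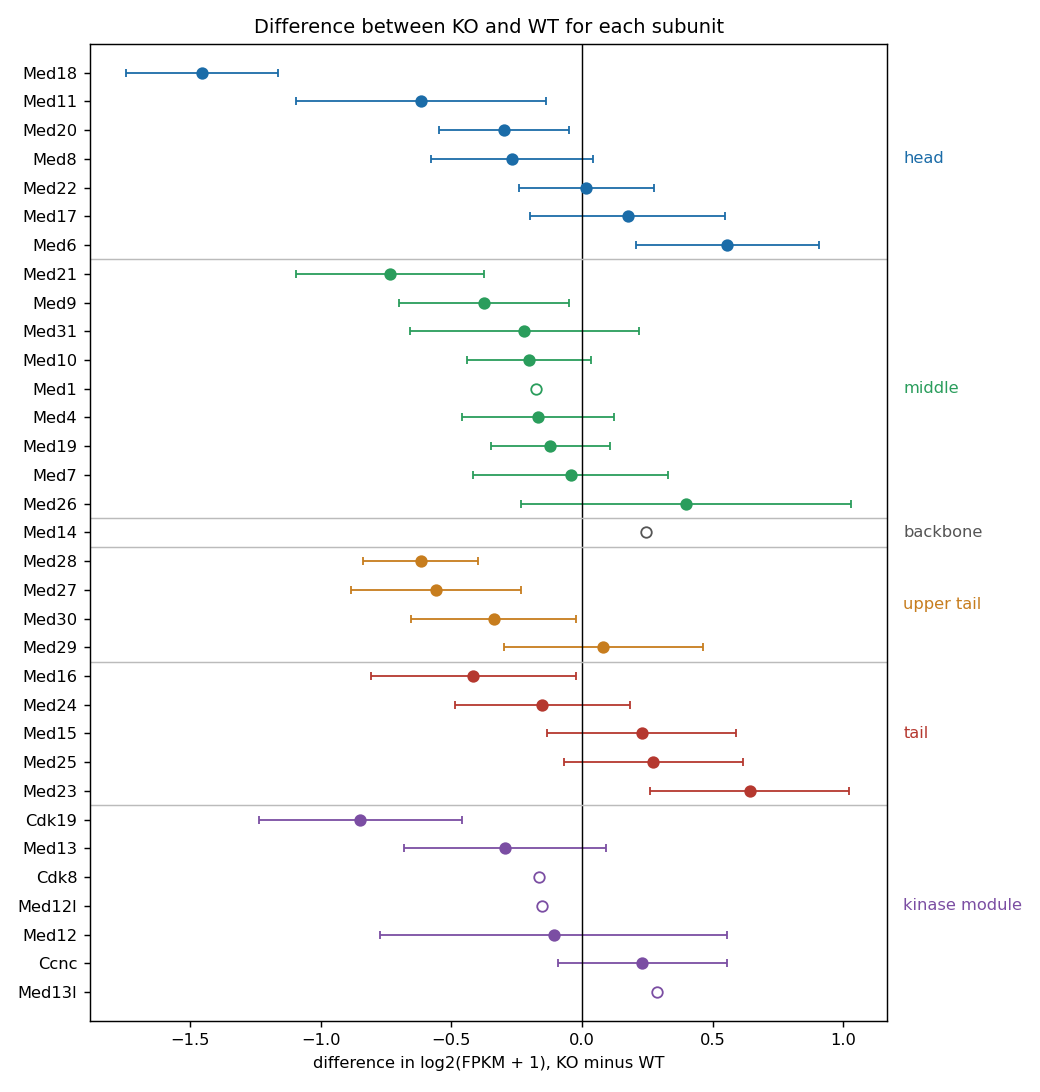
Difference in log2(FPKM + 1), KO minus WT, for each subunit by part of the complex. Bars are the SE from the limma fit, and open points without bars are the 5 subunits that did not pass the filter. Med18 lies at -1.45 and the other subunits between -0.85 (Cdk19) and 0.64 (Med23), while with a pseudocount of 0.1 Cdk19 was at -1.67 and Med18 at -1.62.

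The kinase module consists of a kinase, either Cdk8 or its paralog Cdk19, with cyclin C, Med12 or Med12l, and Med13 or Med13l, which ties the module to the core. Both kinases were at 1.82 FPKM or less in every library. Cdk19 was at 0.757 and 0.267 FPKM in KO, against 1.56 and 1.82 FPKM in WT, a log2 difference of -0.85 (SE 0.39), which was -1.67 with a pseudocount of 0.1 and -1.25 with libraries rescaled to TPM. Cdk19 passed the filter through its WT libraries alone, and its approximate read numbers were 176 and 60 in KO and 338 and 454 in WT. Cdk8 was at 0.691 and 0.824 FPKM in KO and at 0.547 and 1.5 FPKM in WT, with the KO libraries between the WT libraries (log2 difference -0.16). The ratio of Cdk8 to Cdk19 was 0.913 and 3.09 in KO and 0.351 and 0.825 in WT. Summed over both kinases the level was 1.45 and 1.09 FPKM in KO and 2.11 and 3.32 FPKM in WT. The annotated transcripts of the 2 kinases share 0 words of 50 bases, so reads of this length would not be split between them.

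Ccnc, cyclin C, which either kinase needs, was at 8.10 and 10.9 FPKM in KO and at 6.87 and 8.98 FPKM in WT, with overlapping groups (log2 difference 0.23, SE 0.32). It was the highest of the module in every library. Part of its exon sequence (276 bp) overlaps Tstd3 on the opposite strand, which was at 17.8 and 21.9 FPKM in KO and 29.3 and 31.4 FPKM in WT. Med13 was at 1.47 and 1.37 FPKM in KO, against 2.54 and 1.48 FPKM in WT (log2 difference -0.29, SE 0.38). KO 1 lay below WT 2 by less than the 2 KO libraries of Med13 differed from each other. Its exons overlap the antisense gene Brip1os by 800 bp, which was at 5.84 and 5.38 FPKM in KO and at 3.32 and 4.78 FPKM in WT. The paralog Med13l was at 0.307 and 0.583 FPKM in KO, against 0.092 and 0.274 FPKM in WT, the opposite direction (log2 difference 0.29). As ratios, Med13 stood to Med13l as 4.78 and 2.34 in KO and as 27.6 and 5.39 in WT.

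Med12, the activator of the kinase, differed by library number far more than by genotype. It was at 0.433 and 1.36 FPKM in KO and at 0.133 and 2.46 FPKM in WT, with a log2 difference of -0.11 (SE 0.66) that turned under 4 alternatives. The 2 WT libraries of Med12 differed by 1.61 on the log2 scale, and the 2 KO libraries by 0.72, with the library numbered 2 higher each time. The endothelial sums given above, mainly Cldn5, were also high in the libraries numbered 2, and their part in this was not tested. Med12l was at 0.021 and 0.061 FPKM in KO and at 0.272 and 0.050 FPKM in WT. Its exons overlap those of Igsf10 on the opposite strand by 1948 bp, and without the strand setting the reads of both genes cannot be told apart there.

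**Figure D3:**
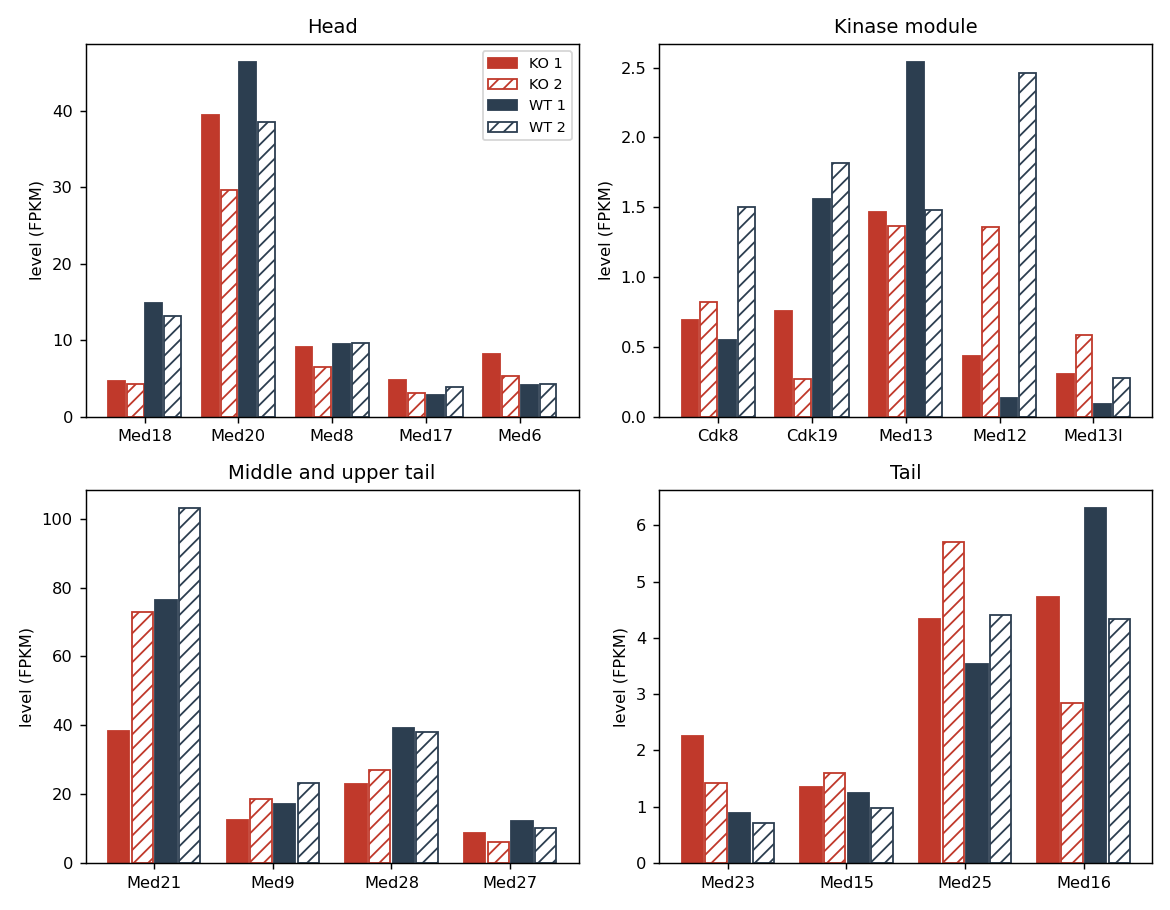
Level in FPKM of 18 subunits in each library, by part of the complex, with solid bars for libraries numbered 1, hatched bars for those numbered 2, red for KO and dark for WT. Med18 and Cdk19 are lower in both KO libraries (Med18 at 4.71 and 4.28 in KO against 14.9 and 13.2 in WT), Med23 and Med6 are higher in both, and Med12 follows the library number.

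Counted over the complex, 28 of 33 subunits passed the filter. Among these, both KO libraries lay above both WT libraries for 3 (Med6, Med15 and Med23) and below them for 7 (Med8, Med13, Med18, Med21, Med27, Med28 and Cdk19). Over all 10754 tested rows the shares were 16.6% above and 18.3% below, and since the genotype difference entered the choice of the complex nothing is read from the comparison. With libraries rescaled to TPM the counts were 4 above and 4 below, against 21.7% and 13.1% of all tested rows. Of the 5 subunits that did not pass the filter, Med14 and Med13l were higher in both KO libraries, and Med1, Cdk8 and Med12l overlapped. The median log2 difference was -0.19 over the 28 subunits and -0.16 over all 33, beside 8.1e-05 over all tested rows. Without KO replicate 1 the median over the 28 was -0.062, and without KO replicate 2 it was -0.29. It was -0.17 with Med18 left out and -0.092 with libraries rescaled to TPM, where the median of all tested rows was 0.095.

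Across the table, the median difference was below 0 for short genes and above 0 for long ones, and the medians of the subunits stood in the same order. The 18 subunits with a coding sequence under 1000 bp had a median log2 difference of -0.24, beside -0.11 over the 3446 tested genes of that size. Of these 18, the mean was lower in KO for 14. The 15 longer subunits had a median of -0.11, beside 0.089 over 5642 tested genes of that size, and the mean was lower for 8 and higher for 7. Spearman's rho between the log2 difference and coding length was 0.46 over the 33 subunits and 0.24 over 9088 tested genes. After the trend with transcript length was removed, the median of the 28 subunits was -0.16. Short and long subunits also fall into different parts of the complex. Both KO libraries were higher for Med6 and 4 of the longer subunits (Med13l, Med14, Med15 and Med23), whether or not they passed the filter. Both were lower for 2 of the longer subunits (Cdk19 and Med13) and for 5 of the shorter ones. Over the 22897 rows with a value above 0 in any library, 13.8% were higher in both KO libraries and 13.3% lower.

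**Figure D4:**
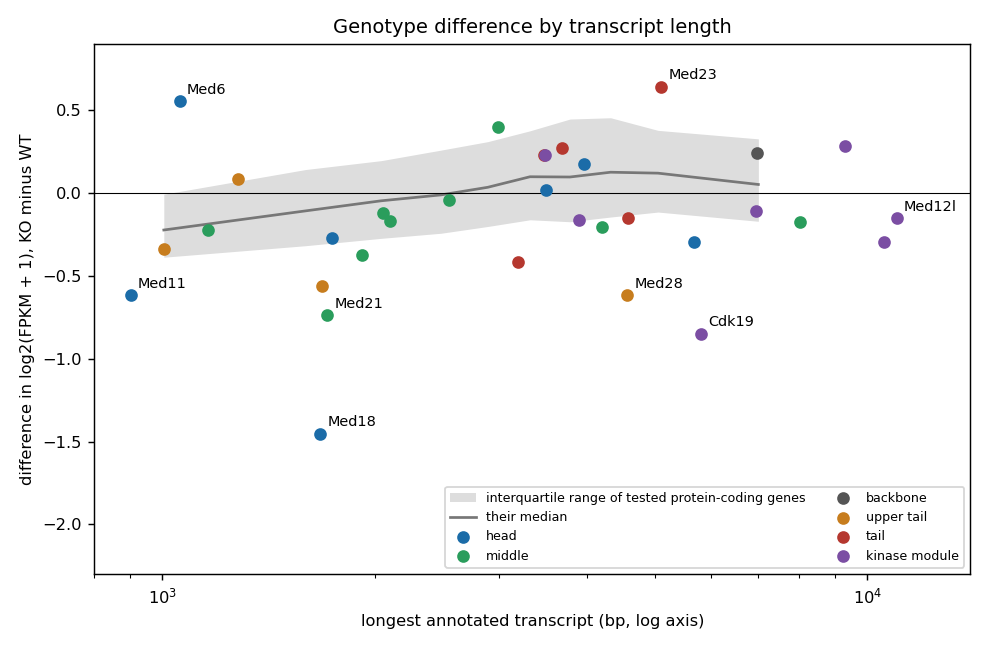
Difference in log2(FPKM + 1), KO minus WT, against the longest annotated transcript on a log axis, with points for the 33 subunits coloured by part of the complex. The grey line and band are the median and the interquartile range of tested protein-coding genes in 10 equal classes of transcript length. The line lies at -0.22 in the shortest class and above 0 in the 6 longest, and Med18 at -1.45 lies far below the band.

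The machinery that Mediator acts on was examined through 5 lists, in which 0 genes passed the test by limma in either direction. Of 13 genes named for RNA polymerase II (Polr2a to Polr2m), 8 were lower in both KO libraries and 1 was higher, beside 18.3% and 16.6% of all tested rows. Their median log2 difference was -0.24, and that of the shortest class of transcript length across the table was -0.22. The part of gene length in this list was not tested. Polr2h, a small subunit shared by all 3 nuclear polymerases, was at 13.6 and 13.4 FPKM in KO, against 35.2 and 17.96 FPKM in WT (-0.85, SE 0.38). Polr2b, the second largest subunit, went the other way at 41.2 and 34.4 FPKM in KO, against 30.8 and 14.0 FPKM in WT (0.82, SE 0.41). Of 18 general initiation factors, 5 were lower and 2 higher (median -0.18), beside 18.3% and 16.6% of all tested rows, with Gtf2e1, a TFIIE subunit, at 6.12 and 5.41 FPKM in KO and 3.74 and 1.80 FPKM in WT (0.89, SE 0.40). Gtf2h4, a TFIIH subunit, was at 5.78 and 4.73 FPKM in KO and at 9.45 and 8.38 FPKM in WT (-0.67, SE 0.31).

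Of 13 TFIID factors, 12 passed the filter, of which 4 were lower in both KO libraries and 2 higher (median -0.12), beside 18.3% and 16.6% of all tested rows. The largest differences there were those of Taf5 (-0.73, SE 0.55, overlapping) and Taf7 (-0.57, SE 0.38, lower). Of 21 elongation genes, 18 passed the filter, of which 2 were lower and 4 higher (median 0.04), beside the same shares of 18.3% and 16.6%. Ell2, an elongation factor of the super elongation complex that Med26 recruits, was at 8.46 and 5.99 FPKM in KO, against 4.28 and 0.831 FPKM in WT (1.39, SE 0.60). Mllt1, of the same complex, was at 15.1 and 8.13 FPKM in KO, against 5.03 and 7.95 FPKM in WT (0.72, SE 0.42). Of 7 cohesin genes, which act with Mediator in joining enhancers to promoters, 4 passed the filter and all 4 overlapped (median -0.15). Smc1a and Smc3 differed most, by -0.33 (SE 0.47) and -0.20 (SE 0.34).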

How the data were processed

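RNA sequencing was available for 2 KO and 2 WT libraries. The deposited values are FPKM per gene, 1 column per library. Per the submitters' processing notes, reads were aligned with TopHat to mm10. The sources used here do not name the program that made the FPKM, its annotation, strand setting or filters. Total reads are not given, and read numbers were estimated from steps between values of 0.003 to 0.2 FPKM multiplied by transcript length.

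Values were analysed as log2(FPKM + 1), which understates differences of low genes. Rows with at least 1 FPKM in at least 2 libraries were fitted with limma 3.58.1 in R 4.3.3 (genotype term, trended empirical Bayes variances, two-sided, threshold 0.05 on p adjusted by Benjamini and Hochberg). SE are from this fit. Errors between libraries rest on 2 per group. All member rows were named, and for each list the 2 largest differences. The complex, lists and rules were chosen with earlier results of these data known.

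Gene models were GENCODE M21 (GRCm38), with the longest transcript per gene. Promoters are credited to RefSeq GRCm38.p6, which held 28 of 33 subunits, and Cdk19, Med8, Med23, Med24 and Med30 had no entry. Alternatives were another pseudocount (0.1), other filters, 3 scalings, a replicate block, removal of a length trend, no variance trend and each library left out.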

Additional observations from a re-analysis of the deposited data

How the results depend on the processing

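No gene of the table passed by limma under any alternative that kept all 4 libraries, apart from removal of the length trend, for which only the median was computed. Genes at an unadjusted p under 0.05 then ran from 448 of 8537 rows (mean of at least 2 FPKM) to 1123 of 22897 rows (no filter). A share of about 0.05 is expected with no difference at all. The count of subunits with both KO libraries above both WT libraries was 3 of 28, beside 16.6% of all tested rows. It became 5 of 33 with no filter (13.8% of rows) and 1 of 23 with a mean of at least 2 FPKM (15.9%). The count below was 7, beside 18.3% of rows, and became 4 with libraries rescaled to TPM (13.1%). Leaving out a library compares 2 with 1, which separates more genes by construction. The count above then lay between 3 and 9, beside 30.5% to 35.5% of all tested rows. The count below lay between 11 and 16, beside 32.7% to 36.6%, and the median difference between -0.29 and -0.062. The median kept its sign under all alternatives. Single subunits kept their sign under all alternatives for 18 of 28. The library numbers were shared by the genotypes, but nothing in the labels says that they pair libraries. Deviations of same-numbered libraries correlated at r = 0.29 over the tested genes and 0.60 over the subunits. With a replicate block, each KO library compared with the WT library of its number, 5 subunits were higher in both pairs and 15 lower, against 26.8% and 28.3% of all tested rows. Leaving out Med18 and using all 33 subunits were added after the data had been seen. With 2 libraries per group, differences of the size of most subunits cannot be separated from the spread between libraries.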
